A study of Mus musculus with 25 samples.

Results

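The genes described here encode the machinery that starts and copies DNA: 49 mouse genes in 8 roles, from origin recognition to the chromatin assembled behind the fork. They were chosen by name and not by a cut on their values, but with earlier results of these data known. All 49 were found among the 48795 genes of the deposited table. All 49 also passed the filter of a mean of at least 10 normalized counts, which kept 14141 genes for testing. A normalized count is a gene's read count divided by the scaling factor of its library.

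Transcripts were measured by RNA sequencing in 25 libraries, each from the sorted Thy1.2+CD44- thymocytes (stages DN3 and DN4) of a different mouse aged 7 to 8 weeks. WNK1-deficient mice carried the genotype Wnk1fl/fl/CD2Cre/Rag1KO (KO in the plots) and control mice Wnk1fl/+/CD2Cre/Rag1KO (HET in the plots). Thymi came from mice given 150 µg of anti-CD3e into the peritoneum 3, 24 or 48 hr before, or from uninjected mice (0 hr), with 3 libraries in each genotype at each time except 4 of WNK1-deficient thymocytes at 0 hr. Mice of every group lacked RAG1, so that their thymocytes stop at the pre-TCR checkpoint and the antibody serves in place of that receptor's signal. Every group also carried CD2-Cre, a transgene that acts in lymphoid cells, so that the control cells are expected to keep 1 intact *Wnk1* allele and are not wild type. The mice at 0 hr received no control antibody.

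*Wnk1* transcripts ran from 3056 to 3535 normalized counts in WNK1-deficient libraries at 24 hr, against 5433 to 7281 in control libraries, and the genotypes did not overlap at any other time either. Recovered depth ran from 22.5 to 57.3 M reads a library (M, megareads). *Xist* ran from 10918 to 45584 normalized counts at 0 and 48 hr and stood at 13.8 or less at 3 and 24 hr, where the sum of 4 Y-linked genes was 3704 to 7577, so that the mice differed in sex between these times. The lane number in the sample names was 1 or 2 at 0 hr and 3 or 4 at 3 and 24 hr, so that changes at 3 and 24 hr against 0 hr cannot be told apart from sex and lane. Changes from 24 to 48 hr cannot be told apart from sex. In control libraries they cannot be told apart from lane either, since those at 48 hr were of lanes 1 and 2. Mice at 0 and 48 hr were alike in sex, but within WNK1-deficient libraries they shared no lane, and within control libraries only lane 1. At 0 hr all control libraries were of lane 1 and all WNK1-deficient libraries of lane 2, so that genotype and lane cannot be told apart there. When the whole table was first examined 3 libraries were set apart from their groups, WNK1-deficient replicate 3 at 48 hr and control replicate 3 at 3 and at 24 hr, and results that rest on them are given with and without them.

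Replication begins where the origin recognition complex, with CDC6 and CDT1, loads the MCM helicase onto DNA during G1. In S phase the kinase CDC7 with its activator DBF4, and a set of firing factors, join CDC45 and the GINS complex to MCM and so switch the helicase on. Polymerases then follow the unwound fork, held to DNA by the PCNA clamp, while other proteins coat single strands, join the lagging-strand fragments and rebuild chromatin. Many of these genes are textbook targets of E2F factors and are transcribed as cells enter S phase. DN3 thymocytes that receive a pre-TCR signal are known for rapid division.

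The start-site regions of the 3 genes with the largest falls in WNK1-deficient thymocytes at 24 hr that could be matched, and of the gene with the smallest change, are shown to let the sequence be read beside the transcript values given further on. Each runs from 250 bases before to 50 bases after the RefSeq start site (GRCm38.p6), 5′ to 3′ on the strand of the gene, and capitals mark E2F-type matches. *Chaf1b* lies at chr16:93883651-93883950 (plus strand), *Pole2* at chr12:69228141-69228440 (minus strand), *Cdc6* at chr11:98907901-98908200 (plus strand) and *Orc5* at chr5:22550289-22550588 (minus strand).
Chaf1b: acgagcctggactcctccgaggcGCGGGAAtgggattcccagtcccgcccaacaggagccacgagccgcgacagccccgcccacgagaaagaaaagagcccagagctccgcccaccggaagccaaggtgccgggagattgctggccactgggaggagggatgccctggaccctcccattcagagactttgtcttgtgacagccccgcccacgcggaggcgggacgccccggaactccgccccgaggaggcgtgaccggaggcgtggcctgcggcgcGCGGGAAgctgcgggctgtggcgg
Pole2: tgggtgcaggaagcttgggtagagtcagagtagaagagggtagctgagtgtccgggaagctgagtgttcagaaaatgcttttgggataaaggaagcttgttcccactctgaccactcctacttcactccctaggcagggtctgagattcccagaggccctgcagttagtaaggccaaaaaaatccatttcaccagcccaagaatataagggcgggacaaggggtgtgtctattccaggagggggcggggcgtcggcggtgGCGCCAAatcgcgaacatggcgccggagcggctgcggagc
Cdc6: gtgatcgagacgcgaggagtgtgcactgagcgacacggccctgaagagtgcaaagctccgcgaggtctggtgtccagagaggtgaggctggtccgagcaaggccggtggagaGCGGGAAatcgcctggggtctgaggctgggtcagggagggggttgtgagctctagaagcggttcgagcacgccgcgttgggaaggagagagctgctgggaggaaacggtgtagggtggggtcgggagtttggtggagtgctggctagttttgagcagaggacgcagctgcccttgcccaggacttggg
Orc5: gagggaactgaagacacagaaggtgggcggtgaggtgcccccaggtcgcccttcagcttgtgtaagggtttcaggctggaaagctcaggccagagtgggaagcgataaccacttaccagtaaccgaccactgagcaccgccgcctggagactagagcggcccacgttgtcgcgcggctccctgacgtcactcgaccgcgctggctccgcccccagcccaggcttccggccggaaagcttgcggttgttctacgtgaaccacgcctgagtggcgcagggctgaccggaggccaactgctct

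An E2F-type match was TTCCCGC, or otherwise TTCGCGC, or otherwise TTGCCGC, or otherwise TTGGCGC, on either strand. *Chaf1b* had 2 matches, 1 on each side of its start, and *Pole2* and *Cdc6* had 1 each. These letters were not in the *Orc5* window. Among the members, 38 had such a region, and 21 of the 38 (55.3%) held an E2F-type match, beside 2618 of the 27025 regions of all genes (9.69%). A match stood in 6 of the 9 members with a region that were called lower at 24 hr and in 15 of the 29 that were not called. The CHR letters TTTGAA, a cell-cycle element, stood in 6 of the 38 (15.8%, and 18.1% of all regions). CCAAT stood in 19 of the 38 (50%, and 37.9% of all regions), and the E-box CACGTG in 5 (13.2%, and 7.24% of all regions). Both strands were searched, none of these motifs contains another, and a match is a run of letters and not a shown site.

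**Figure D1:**
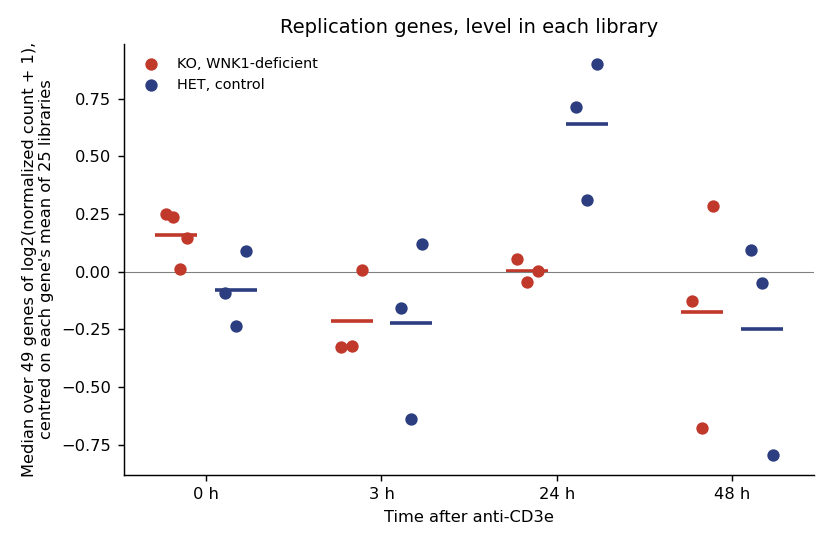
Level of the 49 replication genes in each of 25 libraries by time after anti-CD3e. Each point is 1 library, the median over 49 genes of log2(normalized count + 1) after centring each gene on its mean of the 25 libraries, and the short line is the group mean. At 24 hr the 3 WNK1-deficient libraries lie between -0.04 and 0.05, and the 3 control libraries, between 0.31 and 0.90, lie above every other library.

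At 24 hr after anti-CD3e all 49 genes had a lower fitted mean in WNK1-deficient than in control thymocytes, and 15 of them passed the test as lower. The 15 came from every role except Okazaki fragment maturation, with *Chaf1b*, *Gins2*, *Pole2*, *Tipin*, *Cdc6*, *Gins1*, *Chtf18* and *Prim2* each lower by more than 1 on the log2 scale. These 15 are 30.6% of the members, beside 5.45% of all genes tested that were called lower (and 7.03% called higher). The test was limma on log2(normalized count + 1), with p-values adjusted by Benjamini-Hochberg over all 14141 genes and a threshold of 0.05, and each standard error (SE) below takes its spread from all 8 groups. The median log2 fold change of the 49 was -0.59, beside 0.003 over all genes tested. For 34 of the 49 genes the 3 WNK1-deficient libraries all lay below the 3 control libraries, beside 16.9% of all genes tested (17% had every WNK1-deficient library above), and the other 15 overlapped. All 15 called genes were among the 34. With every library scaled to a common total 48 of the 49 were lower and 10 were called. Of all genes tested 584 were called lower in that fit, and *Orc5* had a log2 fold change of 0.01 there. In bulk RNA a smaller share of replicating cells and less transcript in each cell cannot be told apart.

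**Figure D2:**
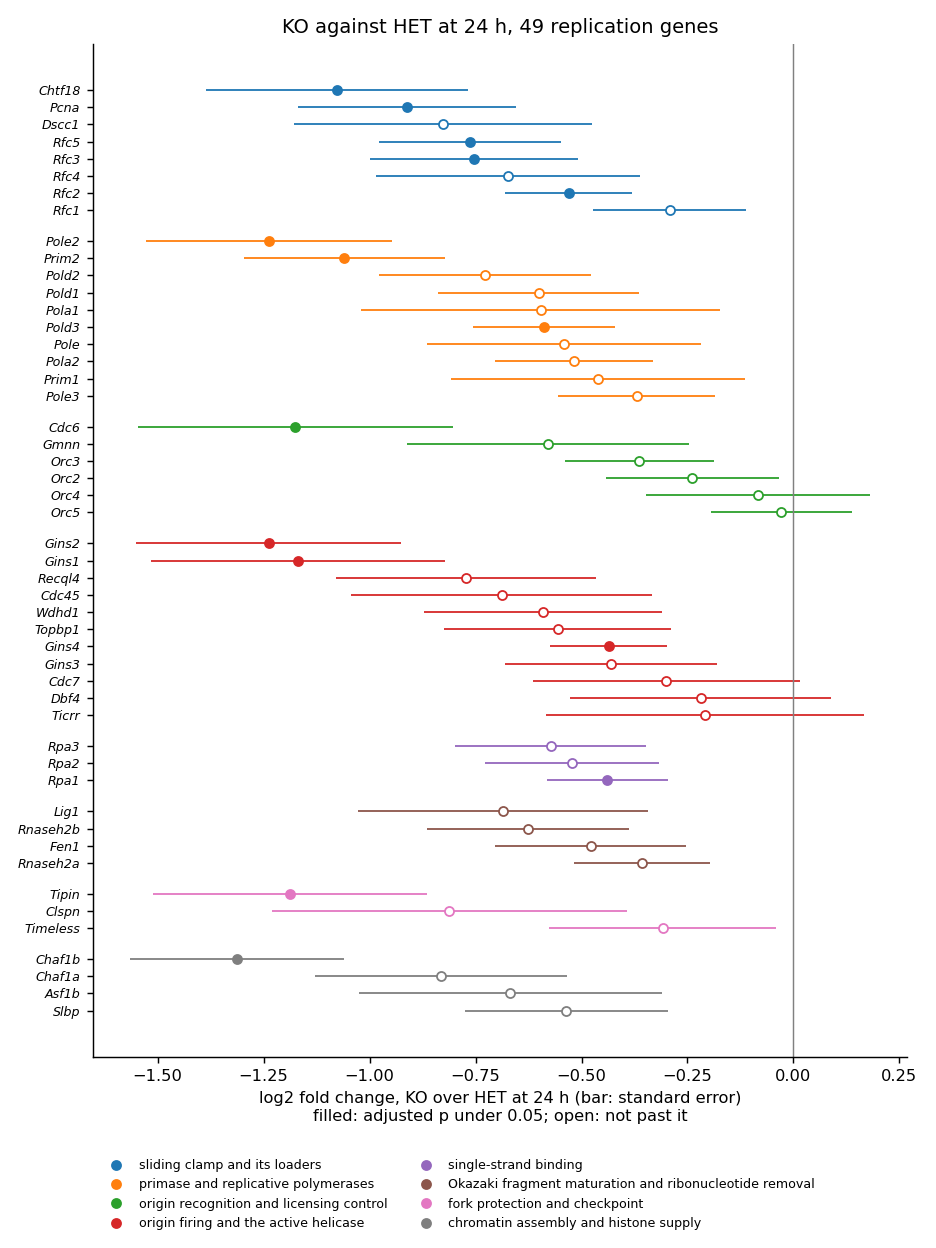
Change of each of the 49 genes in WNK1-deficient over control thymocytes at 24 hr, as log2 fold change with its standard error, grouped by role. All 49 points lie below 0, from -1.31 for Chaf1b to -0.03 for Orc5, and the 15 filled points passed an adjusted p of 0.05.

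The WNK1-deficient libraries at 24 hr were close to each other and the control libraries were not. The median over the 49 genes of the SD of log2 values was 0.067 in WNK1-deficient and 0.330 in control thymocytes. Among the controls replicate 3 was the highest library in 44 of the 49 genes and replicate 2 the lowest in 41.

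The 8 genes for the sliding clamp and its loaders included 5 of the 15 that were lower. *Pcna*, the ring that tethers polymerases to DNA (chromosome 2, 132249286 to 132253180), had 14378, 13589 and 13814 normalized counts in WNK1-deficient libraries, against 28697, 18757 and 33420.5 in control libraries. Every WNK1-deficient library was below every control, and control replicate 2 was nearest to them. *Pcna* was 1.88-fold lower (log2 fold change -0.91, SE 0.26, adjusted p = 0.0238, limma). Reads of 2 *Pcna* pseudogenes were counted apart and came to at most 1.25% of the *Pcna* count in any group.

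*Chtf18*, the large subunit of an alternative clamp loader, had 698, 671 and 571 normalized counts in WNK1-deficient libraries, against 1281, 1337 and 1473 in control libraries. The groups were well apart, and the controls were close to each other (2.11-fold lower, log2 fold change -1.08, SE 0.31, adjusted p = 0.0261). Of the 4 small clamp-loader subunits of replication factor C, 3 were lower. *Rfc5* had 2396, 2244 and 2132 in WNK1-deficient libraries, against 3649, 3345 and 4586 in control libraries (1.7-fold lower, adjusted p = 0.0236). *Rfc3* had 1069, 949 and 1202 in WNK1-deficient libraries, against 1662, 1412 and 2490.2 in control libraries (1.69-fold lower, adjusted p = 0.0482). Neither gene overlapped between the genotypes. *Rfc2* was lower as well (log2 fold change -0.53, SE 0.15, adjusted p = 0.0246). The large subunit *Rfc1* had 4249.9, 4138 and 4058 in WNK1-deficient libraries, against 5652, 3849 and 6025 in control libraries. Its groups overlapped, since control replicate 2 lay below all 3 WNK1-deficient libraries, and it did not pass (log2 fold change -0.29, SE 0.18, adjusted p = 0.320). *Rfc4* (log2 fold change -0.67, adjusted p = 0.166) and *Dscc1*, a partner of CHTF18 (log2 fold change -0.83, adjusted p = 0.131), did not pass either.

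Of the 10 genes for primase and the replicative polymerases, 3 were lower. *Pole2*, the second subunit of polymerase epsilon, which copies the leading strand, had 482, 454 and 478 normalized counts in WNK1-deficient libraries, against 1176, 832 and 1408 in control libraries. The lowest control was well above the highest WNK1-deficient library (2.36-fold lower, log2 fold change -1.24, SE 0.29, adjusted p = 0.00759). *Prim2*, the large subunit of primase, had 1296, 1212 and 1185 in WNK1-deficient libraries, against 2523, 2326 and 2880.2 in control libraries. The controls were within 281 normalized counts of each other as an SD, and the gap between the genotypes was larger than that (2.09-fold lower, log2 fold change -1.06, SE 0.24, adjusted p = 0.00561). *Pold3*, an accessory subunit of the lagging-strand polymerase delta, had 2243, 2024 and 2237 in WNK1-deficient libraries, against 3146, 2951 and 3726 in control libraries. Its groups did not overlap (1.5-fold lower, adjusted p = 0.0252).

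The catalytic subunits of the same enzymes did not pass. *Pola1* of polymerase alpha, on the X chromosome, had a log2 fold change of -0.60 (adjusted p = 0.395) and its groups overlapped. *Prim1* of primase (-0.46, adjusted p = 0.426) overlapped too. *Pold1* of polymerase delta (-0.60, adjusted p = 0.104) and *Pole* of polymerase epsilon (-0.54, adjusted p = 0.299) had lower counts in all 3 WNK1-deficient libraries than in any control. The smallest change in this role was that of *Pole3*, a histone-fold subunit of polymerase epsilon, with 1633, 1550.0 and 1543 in WNK1-deficient libraries, against 1938, 1649 and 2639 in control libraries (log2 fold change -0.37, SE 0.19, adjusted p = 0.208). The groups of *Pole3* did not overlap, with control replicate 2 close above the WNK1-deficient libraries.

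Origin recognition showed the widest range. *Cdc6*, which brings MCM to the origin, had 1458, 1305 and 1567 normalized counts in WNK1-deficient libraries, against 3067, 2675 and 4190.4 in control libraries. No library of 1 genotype reached the range of the other (2.26-fold lower, log2 fold change -1.17, SE 0.37, adjusted p = 0.0414). *Orc5*, a subunit of the origin recognition complex, had 1172, 1197 and 1136 in WNK1-deficient libraries, against 1325, 1125 and 1135 in control libraries. These groups overlapped and the change was the smallest of the 49 (log2 fold change -0.03, SE 0.17, adjusted p = 0.939). *Orc2*, *Orc3* and *Orc4* also overlapped between the genotypes, with log2 fold changes of -0.24, -0.36 and -0.08. *Gmnn*, which encodes geminin, the inhibitor of CDT1, did not pass (log2 fold change -0.58, adjusted p = 0.280).

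Among the 11 genes of origin firing and the active helicase, the 3 that were lower were all subunits of GINS, a complex of 4 proteins that is part of the moving helicase. *Gins2* had 696, 679 and 657 normalized counts in WNK1-deficient libraries, against 1441, 1402 and 2022 in control libraries. Control replicates 1 and 2 were alike and replicate 3 was higher, and all were above the WNK1-deficient libraries (2.36-fold lower, log2 fold change -1.24, SE 0.31, adjusted p = 0.0120). *Gins1* had 428, 393 and 434 in WNK1-deficient libraries, against 1100.0, 586 and 1295 in control libraries. Here control replicate 2 lay apart from the other controls and near the WNK1-deficient libraries (2.25-fold lower, log2 fold change -1.17, SE 0.35, adjusted p = 0.0307). *Gins4* was lower by a smaller amount (log2 fold change -0.44, SE 0.14, adjusted p = 0.0412). *Gins3* overlapped between the genotypes and did not pass (log2 fold change -0.43, SE 0.25, adjusted p = 0.285).

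The other 8 genes of this role did not pass. *Ticrr*, which helps to load CDC45, had 1540.5, 1642 and 1531 normalized counts in WNK1-deficient libraries, against 1851, 1502 and 2153 in control libraries. It had the smallest change of the role and its groups overlapped (log2 fold change -0.21, SE 0.38, adjusted p = 0.774). The kinase genes *Cdc7* (log2 fold change -0.30) and *Dbf4* (-0.22) overlapped as well. For *Dbf4* the 24 hr values were 1631, 1423 and 1402 in WNK1-deficient libraries, against 2395, 1223 and 1752 in control libraries. Larger differences that missed the threshold were those of the helicase subunit *Cdc45* (-0.69, SE 0.36, adjusted p = 0.222) and of *Recql4* (-0.77, SE 0.31, adjusted p = 0.104). *Wdhd1*, which links the helicase to polymerase alpha, and the firing factor *Topbp1* had log2 fold changes of -0.59 and -0.56.

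Replication protein A coats single strands. *Rpa1*, its large subunit, had 8691, 10022 and 9097 normalized counts in WNK1-deficient libraries, against 13143, 12714 and 11812 in control libraries, with no overlap (1.36-fold lower, log2 fold change -0.44, SE 0.14, adjusted p = 0.0480). *Rpa3* had 1126, 1129.7 and 1081 in WNK1-deficient libraries, against 1825, 1296 and 1917 in control libraries. It did not overlap either but missed the threshold (log2 fold change -0.57, SE 0.23, adjusted p = 0.102), as did *Rpa2* (-0.52, adjusted p = 0.102).

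None of the 4 genes for Okazaki fragment maturation and ribonucleotide removal passed in limma, where 3 had an unadjusted p under 0.05, or in edgeR, and DESeq2 called 1. *Lig1*, the ligase that joins the fragments, had 7584, 7687 and 7131 normalized counts in WNK1-deficient libraries, against 11447, 11363 and 13303 in control libraries. Its groups were well apart, and it missed the threshold (log2 fold change -0.69, SE 0.34, adjusted p = 0.206). Fitted on the 24 hr libraries alone, *Lig1* passed (limma adjusted p = 0.0196). That fit also called 15 members, but not the same 15. Of all 14141 genes tested it called 528 higher and 414 lower. *Rnaseh2a*, the catalytic subunit of RNase H2, had 1429, 1510.3 and 1406 in WNK1-deficient libraries, against 1479, 1845 and 2337 in control libraries. It overlapped and had the smallest change of the role (log2 fold change -0.36, SE 0.16, adjusted p = 0.154). *Fen1*, the flap nuclease, had a log2 fold change of -0.48, and *Rnaseh2b* of -0.63.

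*Tipin* and *Timeless* encode partners in 1 fork protection complex. *Tipin* had 1425, 1284 and 1354 normalized counts in WNK1-deficient libraries, against 3419, 1961 and 4379 in control libraries. All controls were higher, replicate 2 the least so (2.28-fold lower, log2 fold change -1.19, SE 0.32, adjusted p = 0.0198). *Timeless* had 2707, 2914 and 2763 in WNK1-deficient libraries, against 3216, 3114 and 4134 in control libraries. Its groups did not overlap, and the change missed the threshold (log2 fold change -0.31, SE 0.27, adjusted p = 0.50). *Clspn*, for the checkpoint adaptor claspin, had a log2 fold change of -0.81 (SE 0.42, adjusted p = 0.221).

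The largest change of all was in chromatin assembly. *Chaf1b*, a subunit of the CAF-1 complex that places histones on new DNA, had 1497, 1452 and 1509.8 normalized counts in WNK1-deficient libraries, against 3112, 3635 and 4450.1 in control libraries. The WNK1-deficient libraries were nearly equal, and every control was far above them (2.48-fold lower, log2 fold change -1.31, SE 0.25, adjusted p = 0.00170). *Slbp*, which binds histone transcripts, had 4273, 4407 and 4422 in WNK1-deficient libraries, against 7554, 4325 and 7773 in control libraries. Control replicate 2 lay within the WNK1-deficient range, and *Slbp* did not pass (log2 fold change -0.54, SE 0.24, adjusted p = 0.152). *Chaf1a*, the large subunit of CAF-1, just missed the threshold (-0.83, SE 0.30, adjusted p = 0.0730), and the histone chaperone *Asf1b* did not pass (-0.67, adjusted p = 0.241).

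**Figure D3:**
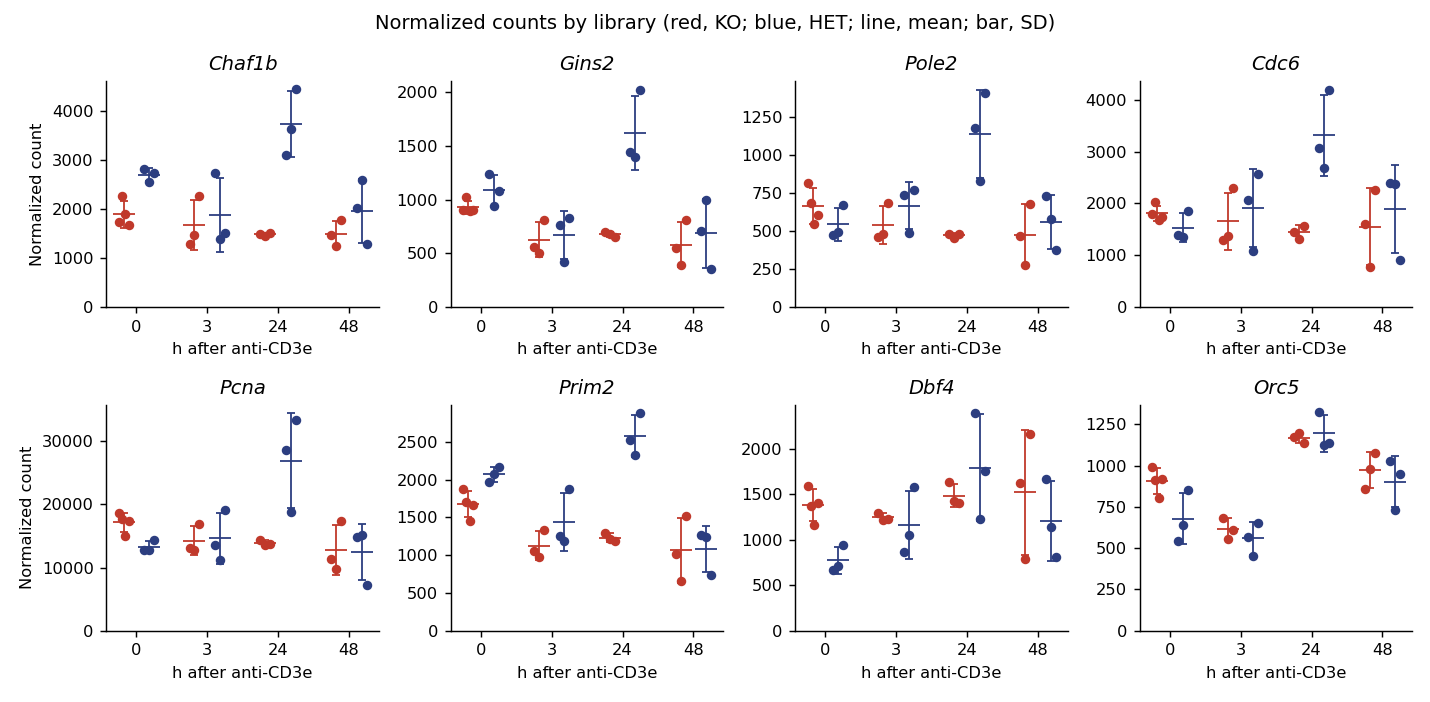
Normalized counts of 8 genes in every library, with the mean as a line and the SD as a bar, at 0, 3, 24 and 48 hr after anti-CD3e, WNK1-deficient (KO, red) left of control (HET, blue). For Chaf1b, Gins2, Pole2, Cdc6, Pcna and Prim2 the 3 WNK1-deficient points at 24 hr lie below the 3 control points, while Dbf4 and Orc5 overlap.

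Since 3 libraries a group is few, each 24 hr library was left out in turn. The number of members called lower was 5, 4 and 4 without WNK1-deficient replicates 1, 2 and 3, and 7, 18 and 3 without control replicates 1, 2 and 3. Of all 14141 genes tested, 771 were called lower with every library in. That count was 415, 370 and 450 without WNK1-deficient replicates 1, 2 and 3, and 613, 833 and 492 without control replicates 1, 2 and 3. The lowest member count was that without control replicate 3, the library with the highest replication gene level and also the one set apart. Without that library the median log2 fold change was -0.46, and 48 of the 49 genes were still lower. *Chaf1b*, *Pole2* and *Prim2* were called in 6 of 6 omissions, with log2 fold changes of -1.44 to -1.18, -1.45 to -1.07 and -1.13 to -0.98, and *Gins2* in 5 of 6, missing the threshold without control replicate 3 (adjusted p = 0.0609). *Pcna* was called in 1 of 6 (log2 fold change -1.15 to -0.74, adjusted p 0.00809 to 0.112). *Rpa1* and *Gins4* were called in none of the 6. Without all 3 libraries set apart, 6 members were called, and 665 of all genes tested were called lower.

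**Figure D4:**
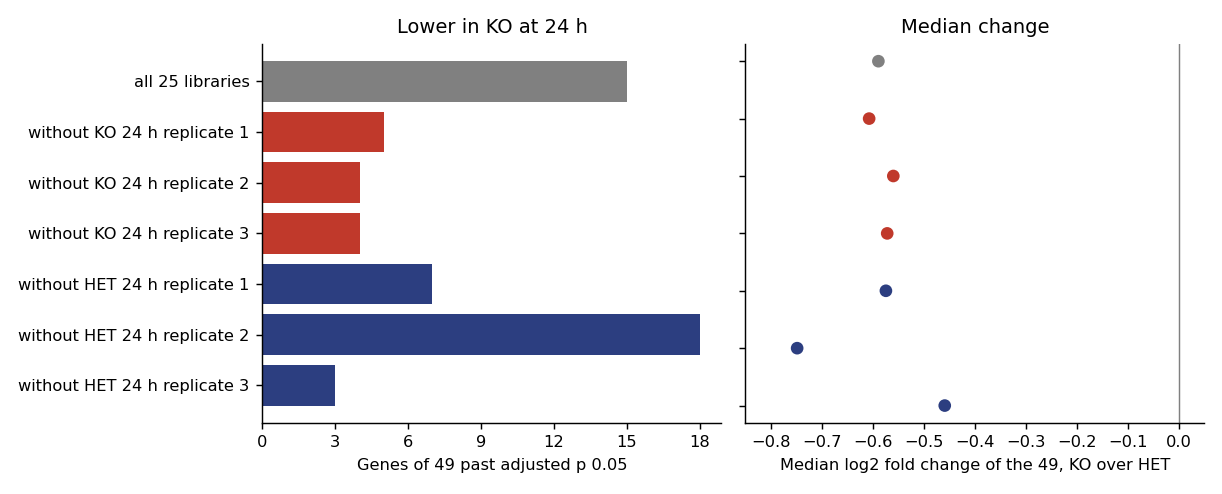
Number of the 49 genes called lower in WNK1-deficient thymocytes at 24 hr (left) and their median log2 fold change over control (right), with all 25 libraries and without each 24 hr library in turn. The count runs from 3 without control replicate 3 to 18 without control replicate 2, and every median lies below -0.4.

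Both lanes used at 24 hr held both genotypes. In lane 3, with 2 WNK1-deficient libraries and control replicate 3, the median log2 difference over the 49 genes was -0.82, and 48 were below 0. In lane 4, with 1 WNK1-deficient library and control replicates 1 and 2, it was -0.45, and 47 were below 0. With lane as a covariate 20 members were called lower at 24 hr, beside 996 of all 14141 genes tested. Without lane that count over all genes was 771.

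Related genes outside the 49 were counted at 24 hr in the same fit. Of 11 other licensing and MCM genes, 5 were lower and none higher in WNK1-deficient thymocytes, with a median log2 fold change of -0.82. They included *Orc1* (log2 fold change -1.24, SE 0.38, adjusted p = 0.0373), and the helicase subunits *Mcm2* (-1.02, SE 0.25, adjusted p = 0.0104) and *Mcm4* (-0.98, SE 0.25, adjusted p = 0.0132). Of 10 E2F factors and partners 4 were lower, among them *E2f1* (-0.93, SE 0.28, adjusted p = 0.0360), *Tfdp1* (-0.75, adjusted p = 0.0169) and *E2f4* (-0.71, adjusted p = 0.00736). The study picked ORC, MCM and E2F genes on these same samples, so these counts are not independent evidence of their direction. Of 19 other fork and replisome genes tested only *Dna2*, a nuclease, was lower (-1.06, adjusted p = 0.0454). Of 8 other histone chaperones 1 was lower, the acetyltransferase gene *Hat1* (-0.82, adjusted p = 0.0288). Of 13 proliferation markers 2 were lower, the nucleotide synthesis genes *Tk1* (-1.22, adjusted p = 0.0297) and *Tyms* (-1.16, adjusted p = 0.0425). The summed level of those 13 ran from 81496 to 82810 normalized counts in WNK1-deficient libraries, against 76412 to 127758 in control libraries, and so overlapped.

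Cell type markers moved at 24 hr as well, and their part in the change of replication genes was not tested. All 11 thymocyte markers passed the filter and 4 were lower in WNK1-deficient thymocytes, and their sum was 83926 to 102445 normalized counts in WNK1-deficient libraries, against 122013 to 180993 in control libraries. *Thy1* had 10980.1, 11544 and 17950.1 in WNK1-deficient libraries, against 29874, 31606 and 44164 in control libraries. *Ptcra*, the pre-TCR alpha chain of the DN3 stage, had 5.93, 3.06 and 3.93 in WNK1-deficient libraries, against 59.2, 115 and 2344 in control libraries. The high *Ptcra* value is that of control replicate 3, which also had 840 normalized counts of *Rag2*, against 28.8 and 31.6 in the other controls. Transcripts of *Cd44*, which the sort excluded at the surface, ran from 663 to 741 in WNK1-deficient libraries, against 127 to 354 in control libraries.

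Markers of other cells were mixed. Of 8 NK and innate lymphoid markers 4 were higher in WNK1-deficient thymocytes at 24 hr, among them *Eomes*, *Klrk1* and *Ncr1*. The median log2 fold change of the 8 was 1.94. The sum of the list was 9444 to 15443 normalized counts in WNK1-deficient libraries, against 12927 to 23684 in control libraries. *Gzma* weighed heavily in that sum, with 3696 to 8988 in WNK1-deficient libraries, against 9202 to 18721 in control libraries. Of 7 myeloid and dendritic markers tested 2 were higher, *Fcer1g* and *Itgax*, and the sum was 1009 to 1911 in WNK1-deficient libraries, against 365 to 922 in control libraries. Of 3 B cell markers tested *Blk* was higher and *Cd79b* lower, the sum was 3623 to 3792 in WNK1-deficient libraries, against 2060 to 2811 in control libraries, and the defining genes *Ms4a1* and *Pax5* were at 0 in all 6. No stromal or epithelial marker of 5 tested and no erythroid marker of 3 tested was called by limma, edgeR or DESeq2, with 1 and 0 at an unadjusted p under 0.05. The stromal sum ran from 13443 to 13949 in WNK1-deficient libraries, against 7015 to 13083 in control libraries. Most of it was the 1 gene *Pecam1*, with 12388 to 12862 in WNK1-deficient libraries, against 5921 to 12326 in control libraries. The erythroid sum ran from 269 to 1115 in WNK1-deficient libraries, against 983 to 3161 in control libraries. The stromal marker *Pdgfra* was at 0 in all 3 control libraries, but other markers of that list were not. *Col1a1* ran from 32.8 to 36.7 in WNK1-deficient libraries, against 27.5 to 78.2 in control libraries. *Krt8* ran from 10.7 to 35.6 in WNK1-deficient libraries, against 29.9 to 34.5 in control libraries.

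Each genotype was then followed through time. In WNK1-deficient thymocytes 1 gene rose by 24 hr and 5 fell, beside 16% of all genes tested that rose and 14.3% that fell, and the median log2 fold change was -0.17. *Rpa1* rose (log2 fold change 0.64, SE 0.13, adjusted p = 0.000954). *Rfc3* (-0.62), *Pold1* (-0.63), *Pole3* (-0.61), *Rpa2* (-0.57) and *Rnaseh2a* (-0.57) fell. *Orc5* (0.37) and *Dbf4* (0.11) did not pass. Fitted on the WNK1-deficient 0 and 24 hr libraries alone, 20 genes were called, 3 of them as higher. In that fit 3182 of all 14141 genes tested rose and 3057 fell. With lane as a covariate none was. Leaving out single libraries gave 3 called without 0 hr replicate 2 or 3 or any 24 hr replicate.

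In control thymocytes 25 of the 49 genes rose by 24 hr and 1 fell, beside 17% of all genes tested that rose and 16.9% that fell. The median log2 fold change of the 49 over 0 hr was 0.66. The largest were *Clspn* (log2 fold change 1.46, SE 0.42, adjusted p = 0.0105), *Cdc45* (1.27, adjusted p = 0.00880) and *Asf1b* (1.25, adjusted p = 0.0103). *Orc5* (0.83), *Dbf4* (1.17) and *Rpa1* (1.17) were among those that rose. *Rnaseh2a* was the gene that fell (-0.45, SE 0.16, adjusted p = 0.0354). Leaving out 1 library changed the number called to 14 without control 0 hr replicate 1, 13 without 0 hr replicate 2, 14 without 24 hr replicate 1, 14 without 24 hr replicate 3 and 31 without 24 hr replicate 2. With lane as a covariate 1 member was called, and the median was -0.02. Only WNK1-deficient thymocytes at 48 hr held lane 1 together with a lane used at 24 hr, so that fit rests on them.

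**Figure D5:**
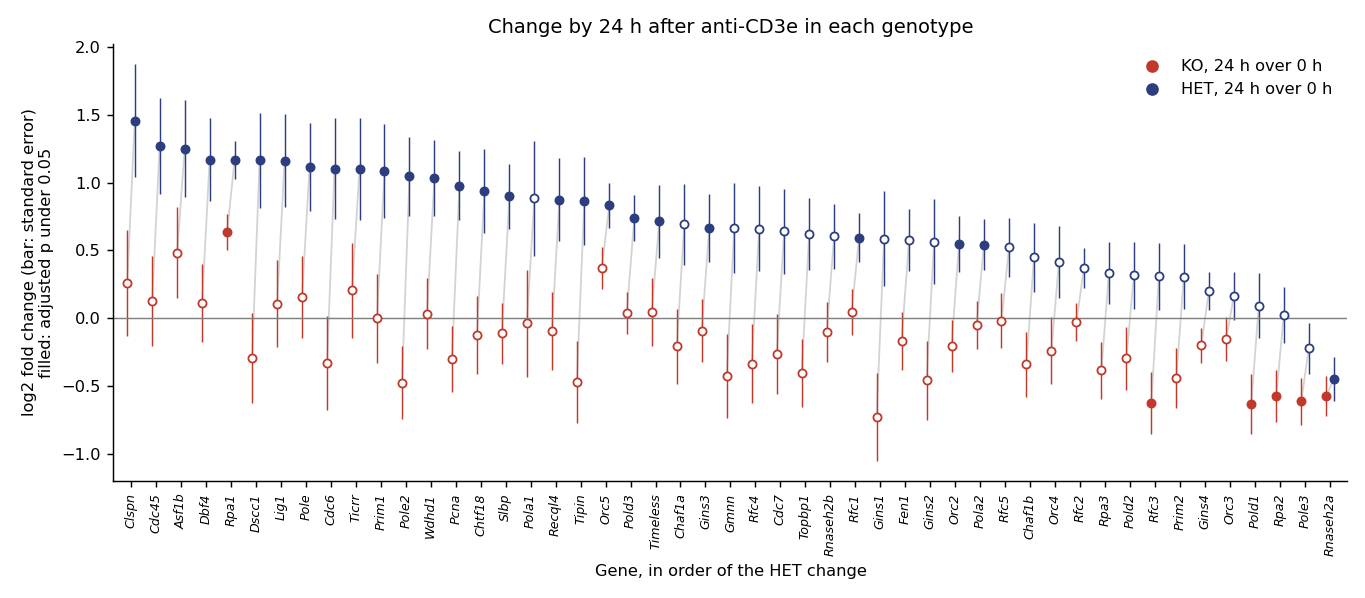
Change of each of the 49 genes by 24 hr after anti-CD3e over 0 hr, WNK1-deficient (KO, red, left) beside control (HET, blue, right), as log2 fold change with its standard error, in order of the control change. In each pair the red point lies below the blue one, with 47 control and 13 WNK1-deficient changes above 0, and filled points passed an adjusted p of 0.05.

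The ratio of the 24 hr to the 0 hr group mean had a median over the 49 genes of 0.890 in WNK1-deficient thymocytes (0.601 to 1.56) and 1.62 in control thymocytes (0.741 to 2.72). Of the 8 groups, control thymocytes at 24 hr had the highest mean for 43 of the 49 genes. *Pcna* averaged 13927 ± 406 normalized counts at 24 hr and 17187 ± 1536 at 0 hr in WNK1-deficient thymocytes (SD, n = 3 and 4), and 26958 ± 7485 at 24 hr and 13324 ± 962 at 0 hr in control thymocytes (n = 3 each). At 0 hr *Chaf1b* had 1740.1, 2277, 1892 and 1666 normalized counts in WNK1-deficient libraries, against 2825, 2553 and 2740.5 in control libraries. *Prim2* had 1873, 1701, 1456 and 1665 at 0 hr in WNK1-deficient libraries, against 1973, 2078 and 2171 in control libraries. These were the 2 members with every WNK1-deficient library below every control at 0 hr, and neither difference passed (log2 fold changes -0.52 and -0.31, adjusted p = 0.117 and 0.326).

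Whether the 24 hr responses of the genotypes differ was tested as a genotype by time interaction, and no member passed, beside 0.658% of all genes tested. All 49 interaction values were below 0, with a median of -0.89, and 37 had an unadjusted p under 0.05. The largest was that of *Pole2* (log2 -1.52, SE 0.40, adjusted p = 0.0737), and *Pcna* followed among the lowest p (-1.28, SE 0.35, adjusted p = 0.0910). On recovered reads edgeR called 0 members, beside 48 positive and 40 negative interactions among all 14141 genes tested. DESeq2 called 2 members, beside 166 positive and 196 negative among 14125 genes. Limma on the 4 groups concerned called 22, beside 218 positive and 257 negative among 14141. Without control 24 hr replicate 2, 5 were called, beside 153 positive and 193 negative among all genes tested. With lane as a covariate the median interaction was 0.01 and 24 of the 49 were below 0. That fit could tell lanes 1 and 2 apart only by control libraries at 48 hr. The interactions at 3 hr and 48 hr had no member called either, beside 0.0707% and 1.36% of all genes tested, with 2 and 0 members at an unadjusted p under 0.05, and edgeR and DESeq2 called none.

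In uninjected mice (0 hr) the sign of the difference depended on whether lane was in the fit. Without lane 39 of the 49 genes had a higher mean in WNK1-deficient thymocytes, with a median log2 fold change of 0.26, and 2 were called higher and none lower, beside 11% and 11.1% of all genes tested. *Dbf4*, the activator of CDC7, had 1591, 1366, 1162 and 1401 normalized counts in WNK1-deficient libraries, against 666, 717 and 943 in control libraries. All 4 WNK1-deficient libraries were above the 3 controls (log2 fold change 0.84, SE 0.29, adjusted p = 0.0411). *Orc5* had 995, 914, 802 and 918 in WNK1-deficient libraries, against 545, 642 and 851 in control libraries. Here the lowest WNK1-deficient library lay below the highest control (log2 fold change 0.44, SE 0.16, adjusted p = 0.0481). Neither call held without control replicate 1 or 2 or without WNK1-deficient replicate 1, 2 or 4. With lane as a covariate the median of the 49 turned to -0.65, with 44 lower, 1 called lower and none called higher, and the log2 fold change of *Dbf4* was 0.07. Only control thymocytes at 48 hr held both lanes 1 and 2, so that fit took the lane difference from them. There the lane 1 library, replicate 3, had a median level of the 49 genes of -0.79, against 0.10 and -0.05 in lane 2. The lane fit thus cannot settle the sign at 0 hr. Across the members 12 were higher and 2 lower in every WNK1-deficient library, beside 19.4% and 21.1% of all genes tested.

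At 3 hr the median log2 fold change of the 49 genes was -0.01, and its sign changed with the libraries used. Without control replicate 3, the library set apart, it was 0.17, with 36 above 0. In lane 4, with all 3 WNK1-deficient libraries and only that control library, the median log2 difference was -0.34, with 45 below 0. No member passed (lowest adjusted p = 0.200, limma), beside 9.18% of all genes tested, and 1 had an unadjusted p under 0.05. edgeR and DESeq2 called none. In 3 genes every WNK1-deficient library was below every control and in none above, beside 14.2% and 14% of all genes tested. Against 0 hr the median log2 fold change of the 49 was -0.42 in WNK1-deficient and -0.24 in control thymocytes. In WNK1-deficient thymocytes 12 genes fell by 3 hr and none rose, beside 11.3% and 13.3% of all genes tested, among them *Rpa3* (-0.93), *Gmnn* (-0.97) and *Chtf18* (-0.93 on the log2 scale). In control thymocytes 9 fell and none rose, beside 18.5% and 18.4% of all genes tested, among them *Chtf18* (-1.25), *Asf1b* (-1.01) and *Rnaseh2a* (-0.77). Without WNK1-deficient 3 hr replicate 2 the first count was 2, it was 5 without 3 hr replicate 1 and 6 to 7 without 0 hr replicate 1, 2 or 4. Without control 3 hr replicate 2 the second count was 2, and 5 without control 0 hr replicate 1. Both comparisons share the 0 hr libraries with those at 24 and 48 hr.

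By 48 hr the genotypes overlapped in all 49 genes, beside 23.3% of all genes tested that did not overlap. No member passed (lowest adjusted p = 0.200), beside 13.1% of all genes tested, none had an unadjusted p under 0.05, and edgeR and DESeq2 called none. Within each genotype 1 library at 48 hr stood well below the others: the median level of the 49 genes, centred as in the plot by library, was -0.13, -0.68 and 0.28 in WNK1-deficient replicates 1, 2 and 3, against 0.10, -0.05 and -0.79 in control replicates 1, 2 and 3. Without WNK1-deficient replicate 2, 2 members were called. In lane 1, with 2 WNK1-deficient libraries and control replicate 3, the median difference was 0.36.

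From 24 to 48 hr no member passed in WNK1-deficient thymocytes, beside 6.50% of all genes tested, with a median log2 fold change of -0.18 (0.31 with lane as a covariate), 2 members at an unadjusted p under 0.05 and none called by edgeR or DESeq2. Without the 3 libraries set apart 1 was called. In control thymocytes 33 of the 49 genes fell over the same interval and none rose, beside 10.4% and 12.9% of all genes tested, with a median of -0.85. *Gins2* (-1.35), *Prim1* (-1.30), *Gins1* (-1.30) and *Prim2* (-1.29) fell the most among those that passed. Without control 48 hr replicate 3 the count was 8, without control 24 hr replicate 3 it was 15, and fitted on the control libraries of those times alone it was 1. That last fit called 166 higher and 46 lower of all genes tested. Control libraries of those times shared no lane. With lane as a covariate no member passed in control thymocytes, and 19 of all genes tested rose and 12 fell. The test of the difference between the genotypes over this interval called no member, beside 0.0283% of all genes tested, with 16 at an unadjusted p under 0.05. edgeR called none of them and DESeq2 called 1.

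Against 0 hr, 8 genes were lower and none higher at 48 hr in WNK1-deficient thymocytes, beside 12.5% and 14.3% of all genes tested. In control thymocytes 10 were lower and 2 higher, beside 20.8% and 21.6%. The lower members were 16.3% of the 49 in WNK1-deficient and 20.4% in control thymocytes, near the shares of all genes tested. *Rnaseh2a*, *Rpa2*, *Pole3*, *Pold1*, *Rpa3*, *Prim2*, *Rfc2* and *Gins4* were the 8 in WNK1-deficient thymocytes, and all 8 were also among the 10 of control thymocytes, beside *Rfc3* and *Gins2*. The same overlap was not counted over all genes tested, so it is not shown to be particular to the members. *Rpa1* (0.63) and *Orc5* (0.42) were the 2 that rose in control thymocytes. *Rnaseh2a* had 1103, 1216 and 1566 normalized counts in WNK1-deficient libraries at 48 hr, against 1953, 2198, 2358 and 2126 at 0 hr. In control libraries it had 1237, 1483 and 1088 at 48 hr, against 2946, 2382 and 2308 at 0 hr, and neither genotype overlapped between the times. The median log2 fold change against 0 hr was -0.35 in WNK1-deficient thymocytes and -0.12 in control thymocytes, and with lane as a covariate it was 0.25 and -0.71. Without WNK1-deficient 48 hr replicate 1 or 2 the count of 8 became 3, without replicate 3 it became 15, and without control 48 hr replicate 3 the control count of 12 became 6.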

How the data were processed

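The deposited table holds, as the authors made it, a signal per gene and library: RSEM gene counts divided by a DESeq2 size factor, called normalized counts here. The sources name Trimmomatic 0.36, STAR 2.5.2a, RSEM 1.2.31 (set to use strand), DESeq2 1.18.1, R 3.4.1 and Ensembl GRCm38. Whole reads were recovered by dividing each of the 25 libraries by its smallest step (within 0.001), and they gave the depth of 22.5 to 57.3 M reads (M, megareads) and the input of the count tests only. The 14141 genes whose mean reached 10 entered limma 3.58.1 (R 4.3.3), a fit of 8 group means to log2(value + 1) with a trend on mean expression, and p-values were adjusted by Benjamini-Hochberg within each of 16 comparisons, with 0.05 as the threshold. A fold change on this scale understates the change of low genes.

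Results were recomputed with pseudocounts 0.5 and 5, without the filter, with a minimum mean of 100, with a common total or upper quartile, from only the groups compared, with a replicate block, with lane as a covariate, by edgeR 4.0.16 and DESeq2 1.42.0 on recovered reads, and without each replicate. Leaving out 3 libraries and values within lanes were added after seeing the data. The members, lists and tests were chosen with earlier results of these data known. Values in every library are given for the 12 members with the largest change among those called at 24 hr, up to 4 called at each other time, the largest and smallest change in each role, and *Pcna*. Of the other lists, up to 3 called genes are named. The level of 1 marker gene is not reported here. Promoters are from RefSeq (GRCm38.p6). The fits were tested on simulated data. Plots used matplotlib 3.10.9 and pandas 2.3.3 under Python 3.11.15.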

Additional observations from a re-analysis of the deposited data

Results flagged for a closer look

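In WNK1-deficient thymocytes at 0 hr, the only group of 4 libraries, replicate 2 lay far from the others in 2 of the 49 genes by Dixon's criterion. *Fen1* had 4095 normalized counts in that library, against 3629, 3690.4 and 3701 in the other 3. *Gins2* had 1022 there, against 895, 900.5 and 907. Chance alone would mark about 1 in 20 of the 49 groups tested. Neither gene was called between the genotypes at 0 hr.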

How the results depend on the processing

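Among the log2 fold changes of the named genes between the genotypes, 362 alternative values stayed on the same side of the threshold. Those 362 include values of genes that were called neither in the main fit nor in the alternative. A further 87 lost a call of the main fit and 3 gained one. Sign was compared only for genes called in the main fit, and none of these changed sign. The replicate numbers were not taken as pairs of mice. Same-numbered libraries of the 2 genotypes had correlations of deviations from -0.20 to 0.20, which shows no pairing but cannot exclude it. In all, 4 of 12 numbered WNK1-deficient libraries correlated best with the control library of their own number. A fit with a replicate block on those numbers gave other counts: the members called at 24 hr between the genotypes were 12 in place of 15, at 0 hr 0 in place of 2, and for 24 against 0 hr in WNK1-deficient thymocytes 3 in place of 6. Of all 14141 genes tested the block fit called 864 higher and 632 lower between the genotypes at 24 hr.

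Between the genotypes at 0 hr, 0 were called with no filter, 15 with only the groups compared (13 higher and 2 lower in WNK1-deficient thymocytes), 1 with lane as a covariate (lower, against 2 higher without it), 1 by edgeR (higher), and 0 to 3 with single libraries left out. With only the groups compared, 2383 of all 14141 genes tested were called higher and 2393 lower at 0 hr. At 24 hr 6 were called without the 3 libraries set apart, and 3 to 18 with single libraries left out. At 48 hr that range was 0 to 2, and at 3 hr no setting called a member. In WNK1-deficient thymocytes the count at 3 hr against 0 hr was 21 with only the groups compared and 0 with lane (2 to 11 with single libraries left out). The former fit called 2465 higher and 2394 lower of all 14141 genes tested. At 24 against 0 hr it was 20 and 0 (3 to 5), and at 48 against 0 hr it was 0 with lane and 18 without the 3 libraries (3 to 15). For 48 against 0 hr the fit without the 3 libraries called 2474 higher and 2316 lower of all genes tested. From 24 to 48 hr the count of members was 1 without the 3 libraries. In control thymocytes lane as a covariate gave 14 at 3 hr (2 to 13 with single libraries left out), 1 at 24 hr (13 to 31) and 22 at 48 hr (6 to 14), each against 0 hr. Of all genes tested those lane fits called 1330 higher and 1243 lower at 3 hr. They called 1168 and 966 at 24 hr, and 2740 and 2595 at 48 hr. From 24 to 48 hr lane as a covariate gave 0 members, and only the groups compared gave 1 (8 to 37). For the interaction at 24 hr, 22 were called with only the groups compared and 2 by DESeq2 (0 to 5). For that from 24 to 48 hr it was 1 by DESeq2 (0 to 1). With lane the median interactions at 3 and 48 hr turned to 0.61 and 1.00, in place of -0.21 and -0.20. The cause of these moves was not tested. Lane is nearly confounded with time, so the lane fits rest on few libraries. Leaving out a replicate leaves 2 in a group.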
